A study of Mus musculus with 23 samples.

Results

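The Reg family (Reg1, Reg2, Reg3a, Reg3b, Reg3g and Reg4) encodes small secreted lectin-like proteins of the gut and pancreas. The 6 genes were taken by their symbol in the annotation of the array, which gave 7 probe sets (2 for Reg3b) among 45037 probe sets other than controls and 18193 genes with a probe set of 1 symbol. A probe set entered the fit if its signal lay above the median of the array on at least 5 of 23 arrays. Reg1, Reg3b, Reg3g and Reg4 passed that filter, with 5 probe sets, and Reg2 and Reg3a did not, so those 2 genes were also fitted without it. Each array held colon RNA of 1 C57BL/6J mouse aged 12 to 14 weeks, and no group carried a transgene or mutation. Day 0 (5 mice) received no dextran sulfate sodium (DSS), a polysaccharide that injures the colon epithelium. The mice of day 2, day 4 and day 6 (6 each) drank water with 3% DSS until their colon was collected, a separate cohort each day. Which stretch of colon was taken is not given in the sources used here.

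As background, Reg3g is known as a lectin that binds peptidoglycan and kills Gram-positive bacteria at the mucosal surface, and Reg3b as its relative with activity against Gram-negative bacteria. Both are made by intestinal epithelial cells, and their genes are known targets of IL-22 and STAT3 signalling and of signals from bacteria through MyD88. Reg1 and Reg2 are best known as products of pancreatic acinar cells, and Reg3a is known in mouse from small intestine and pancreas. In mouse colon Reg4 marks deep crypt secretory cells and some enteroendocrine cells.

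Signals were on a linear intensity scale whose trimmed mean was 500 on every array, with array medians from 97.3 to 121.4. Day 2 mouse 6 and day 6 mouse 1 carried pancreatic RNA. Of 22 pancreatic acinar markers with a probe set, day 2 mouse 6 lay above all 21 arrays other than this pair in 20 markers, and day 6 mouse 1 in 17. Day 6 mouse 4 was the highest of those 21 arrays in several of them, with 462 for Prss2, 442 for Cpa1 and 472 for Ctrb1 (trypsin, carboxypeptidase and chymotrypsin genes). Among pancreatic islet markers, Ins2, an insulin gene, was at 383 on day 2 mouse 6 and at most 123 elsewhere, and the summed signal over 5 genes was 114 to 710 across all arrays. Squamous and skeletal muscle RNA was on most arrays. At day 6 against day 0, 6 of 14 squamous markers were higher, where 18.1% of all genes were. In the comparisons with day 0, 0 of 11 tested muscle markers passed. The signal of the hybridization controls on the log2 scale was 11.35 to 11.51 at day 0, 11.15 to 11.46 at day 2, 10.83 to 11.15 at day 4 and 10.68 to 11.14 at day 6, so that day 4 and day 6 lay below day 0 without overlap. The log2 ratio of the 3′ to the 5′ probe sets of actin, a measure of RNA quality, was 0.40 to 0.45 at day 0, 0.39 to 0.56 at day 2, 0.53 to 0.70 at day 4 and 0.48 to 0.59 at day 6. For Gapdh it was −0.46 to −0.33, −0.38 to −0.28, −0.27 to −0.18 and −0.30 to −0.19 on the same days, so that both ratios at day 4 and day 6 lay above day 0 without overlap, and their part in the changes of the Reg genes was not tested.

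At day 6 Reg3b and Reg3g were higher than in untreated colon and Reg4 was lower, and Reg3b and Reg3g were also higher at day 4. In limma's fit over 12463 genes with Benjamini-Hochberg adjustment at 0.05, day 2 against day 0 called 0 of the 4 members tested, where 0.0802% of all genes were called (1595 genes had an unadjusted p under 0.05, Reg3b and Reg3g among them). Day 4 against day 0 called 2 members, both higher, where 16.4% of genes were called and 12.1% were called higher. Day 6 against day 0 called 3 members, where 32.4% of genes were called, 18.1% higher and 14.3% lower. Day 4 against day 2 called 0 members, where 13.5% of genes were called (3693 genes had an unadjusted p under 0.05). Day 6 against day 4 called 3 members, where 22.8% of genes were called, and day 6 against day 2 called the same 3, where 31% were. The median log2 change of all genes was 0.01 at day 2, 0.06 at day 4 and 0.02 at day 6. In these bulk samples fewer cells of a type and less RNA per cell cannot be told apart.

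**Figure D1:**
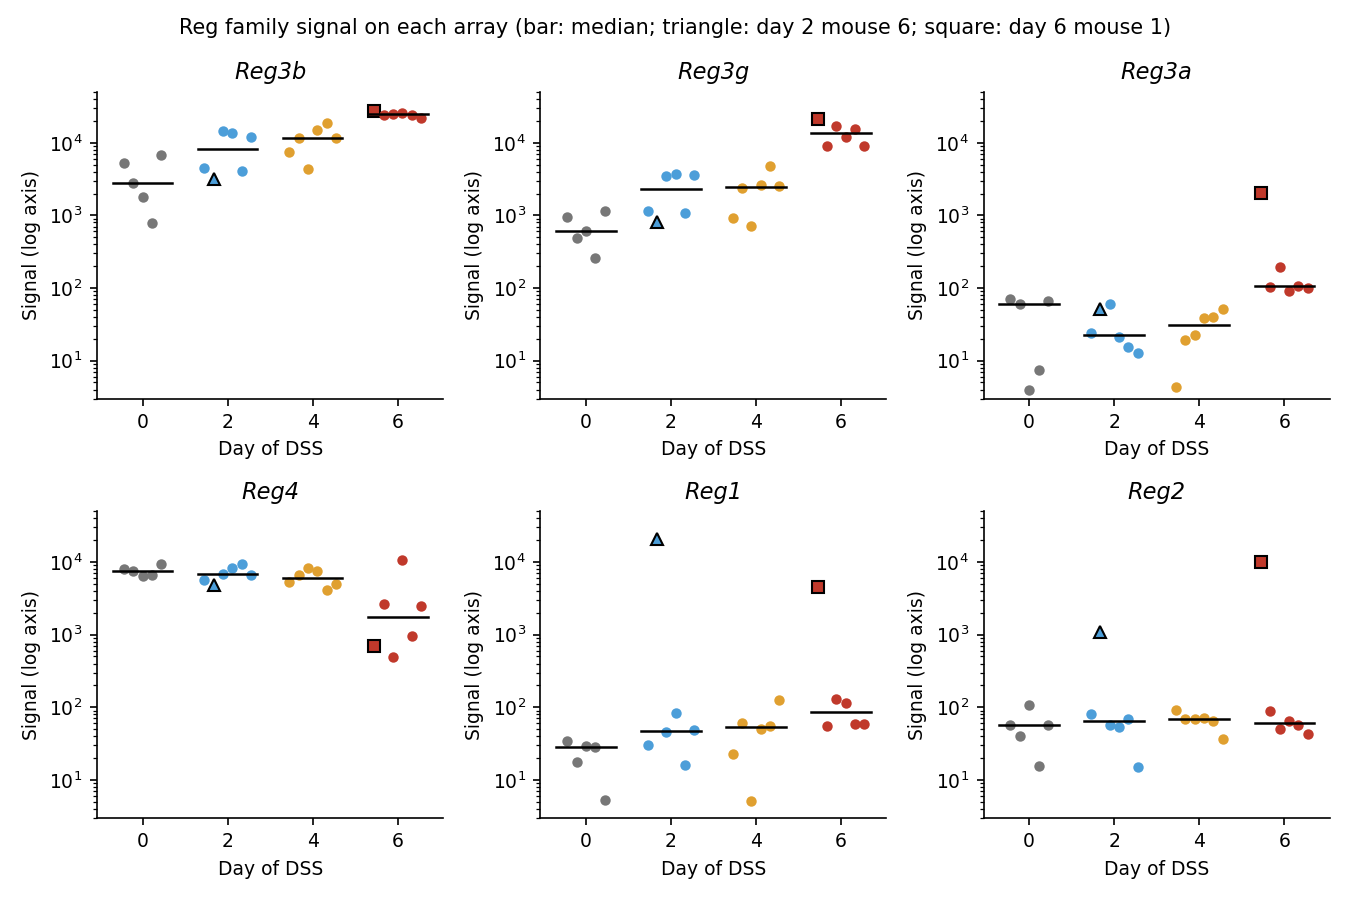
Signal (log axis) of the 6 Reg genes on each of 23 arrays by day of DSS; each point is 1 mouse, the bar is the median of the day, the triangle is day 2 mouse 6 and the square is day 6 mouse 1. Reg3b and Reg3g at day 6 lie above every array of the other days, Reg4 at day 6 spreads from 499 to 10502, and Reg1 and Reg2 are far above their other values on the 2 marked arrays.

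Reg3b was higher at day 4 and day 6 on both of its probe sets. On the probe set with the higher mean log2 signal over all arrays the 5 untreated mice had signals of 5189, 2749, 1818, 785 and 6720. The day 2 mice had a lowest signal of 3203, a median of 8251 and a highest of 14350, the day 4 mice 4354, 11688 and 18561, and the day 6 mice 21625, 24634 and 27297. Day 2 split into 3 mice within the untreated range and 3 above it, 5 of 6 day 4 mice lay above every untreated mouse, and all 6 day 6 mice lay above every mouse of the other days. Of all genes tested, 9.94% had all day 6 mice above all day 0 mice, 3.13% above all day 4 mice and 7.42% above all day 2 mice. The log2 change against day 0 was 1.42 ± 0.46 (SE) at day 2, with limma's adjusted p at 0.183. It was 1.95 ± 0.46 at day 4, a fold of 3.85 (limma adjusted p = 0.00633), and 3.19 ± 0.46 at day 6, a fold of 9.12 (limma adjusted p = 1.53e-05). Against day 4, day 6 was higher by 1.24 ± 0.44 (limma adjusted p = 0.0446), a call that did not hold with the pancreatic arrays left out (0.0616), while day 6 against day 2 was 1.77 ± 0.44 (0.00377). The change between day 4 and day 2 was 0.52, with a 95% interval of −0.39 to 1.44.

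The second Reg3b probe set, whose annotation is the same gene, gave a fitted change that was larger, a difference that was not tested. Cross-hybridization of this probe set with Reg3g, also bright at day 6, was not tested either. The second probe set had 3998, 1904, 1087, 727 and 5162 in untreated mice. Its lowest, median and highest signals were 2728, 7446 and 14201 at day 2, 2630.0, 10485 and 19384 at day 4, and 22734, 29497 and 32366 at day 6. Again no day 6 mouse overlapped an earlier day, and the order of the 3 high day 2 mice above the 3 others was kept. In a limma fit of each probe set the day 4 change was 2.10 ± 0.52 (adjusted p = 0.00654), the day 6 change was 3.80 ± 0.52, a fold of 13.9 (adjusted p = 7.88e-06), and the change against day 4 was 1.70 ± 0.50 (adjusted p = 0.0179). At day 6 the signals of this probe set lay at the top of the array's scale, whose highest signal on the day 6 arrays was 31015 to 33002. On day 6 mouse 4 it was the highest signal of the array, and its part in the difference between the 2 probe sets was not tested.

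Reg3g was higher at day 4 and at day 6. Untreated mice had signals of 965, 483, 619, 263 and 1149. The lowest, median and highest were 800, 2340 and 3699 at day 2, 724, 2450 and 4861 at day 4, and 9083, 13809 and 21481 at day 6. At day 2 and at day 4 alike 4 of 6 mice lay above every untreated mouse, and at day 6 all 6 lay above every mouse of the other days. Against day 0 the log2 change was 1.60 ± 0.47 at day 2 (limma adjusted p = 0.134), 1.62 ± 0.47 at day 4, a fold of 3.08 (limma adjusted p = 0.0218), and 4.41 ± 0.47 at day 6, a fold of 21.2 (limma adjusted p = 3.30e-07). Day 4 and day 2 differed by 0.03, with a 95% interval of −0.91 to 0.96. Day 6 exceeded day 4 by 2.78 ± 0.45, a fold of 6.88 (limma adjusted p = 1.15e-04), and day 2 by 2.81 ± 0.45 (5.53e-05).

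Several of these calls depended on the setting. The call of Reg3b at day 6 against day 4 was lost under 6 of 15 alternatives and with 11 of 23 single arrays left out. Without day 0 mouse 4, the lowest untreated mouse for both, Reg3g at day 4 had a limma adjusted p of 0.0698 and Reg3b kept its call. With the hybridization control signal as a covariate neither gene passed at day 4 (limma adjusted p = 0.239 for Reg3b and 0.389 for Reg3g). At day 6 both passed with it (limma adjusted p = 0.0443 for Reg3b and 0.00752 for Reg3g). The control signal at day 4 and day 6 lay below day 0 without overlap, so signal and day cannot be fully told apart. With that covariate Reg3b at day 6 against day 2 had a change of 1.42 and did not pass (limma adjusted p = 0.253).

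The pair moved together from mouse to mouse. The Pearson correlation of their log2 levels was 0.937 over 23 arrays and 0.905 for deviations from the day means, so mice of the same day that were high in one were high in the other. For each of the genes the other was the most alike of all genes tested, by both measures. On day 2 mouse 7, mouse 8 and mouse 52 both genes were high, with Reg3b at 14350, 13606 and 11957 and Reg3g at 3515, 3699 and 3546. On day 2 mouse 1, mouse 6 and mouse 17 Reg3b was at 4545, 3203 and 4117 and Reg3g at 1165, 800 and 1065. The day 2 mice thus lay in a high and a low set of 3, the same mice for both genes, with no value between the sets. These values share the arrays and their scaling, and no test was made of them. Mouse 6, the lowest of that day for both genes, is the array carrying pancreatic RNA. Mouse 8 had summed squamous and muscle marker signals of 942 and 1449. The other day 2 mice had 12814 to 25436 and 14078 to 66096. The part of such tissue differences in the 2 sets was not tested.

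**Figure D2:**
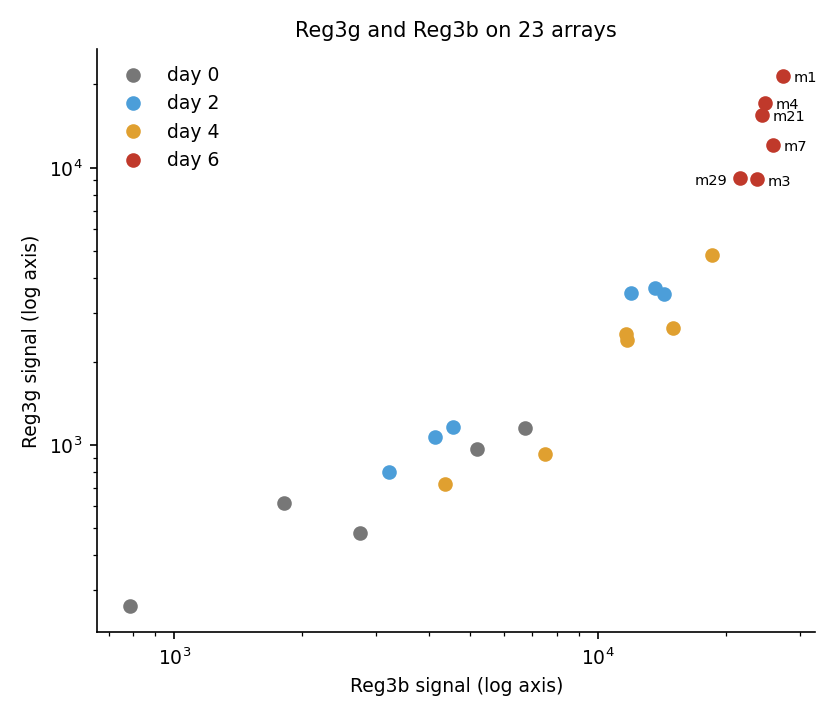
Signal of Reg3g against signal of Reg3b (both log axes) on 23 arrays, coloured by day, with mouse numbers beside the day 6 points. Points of day 0, day 2 and day 4 follow a common band, and the 6 day 6 points rise in Reg3g from 9083 to 21481 over a narrow range of Reg3b, 21625 to 27297.

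Relative to untreated colon, Reg3g moved further than Reg3b at day 6. The log2 change of Reg3g from its day 0 mean, less that of Reg3b, ranged from −0.44 to 0.57 at day 0, from 0.07 to 0.34 at day 2, from −0.89 to 0.16 at day 4 and from 0.71 to 1.75 at day 6, where its median was 1.22. All 6 day 6 mice were above every other mouse in this difference, which is a description of these 2 probe sets. With the second Reg3b probe set the days overlapped. On day 0 mouse 3 the changes from the day 0 mean were 0.006 for Reg3g and −0.865 for that probe set. On day 6 mouse 3 they were 3.85 and 3.57, a smaller difference. Reg3b lay close to the top of the array's scale at day 6, with signals spread by 1.26-fold from lowest to highest, against 8.56-fold at day 0. For Reg3g the spread was 2.37-fold at day 6 and 4.38-fold at day 0. The part of that upper limit in the difference was not tested.

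The starts of the 3 Reg3 genes are shown because all 3 were higher at day 6 and lie in a cluster with other Reg genes between them. In RefSeq's annotation of GRCm38.p6, mouse chromosome 6 holds Reg3b, Reg3d, Reg3a, Reg2, Reg1 and Reg3g in that order, with Reg3d and Reg3g on the minus strand and the others on the plus strand, and Reg4 is on chromosome 3. All 6 members matched an entry of promoters of 250 bases before to 50 bases after the start. Each line gives 140 bases before to 10 bases after the start, 5′ to 3′ on the strand of the gene. Reg3b is at chr6:78370745-78370894 on the plus strand, Reg3g at chr6:78468865-78469014 on the minus strand and Reg3a at chr6:78380569-78380718 on the plus strand. Capitals in Reg3b and Reg3g mark their longest shared run, and capitals in Reg3a mark its longest run shared with Reg3g.
Reg3b: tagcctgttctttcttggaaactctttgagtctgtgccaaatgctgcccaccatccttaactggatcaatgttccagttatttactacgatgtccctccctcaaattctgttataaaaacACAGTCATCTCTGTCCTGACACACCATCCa
Reg3g: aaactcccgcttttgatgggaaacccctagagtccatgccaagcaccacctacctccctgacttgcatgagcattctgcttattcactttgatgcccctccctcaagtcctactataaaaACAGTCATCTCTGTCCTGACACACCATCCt
Reg3a: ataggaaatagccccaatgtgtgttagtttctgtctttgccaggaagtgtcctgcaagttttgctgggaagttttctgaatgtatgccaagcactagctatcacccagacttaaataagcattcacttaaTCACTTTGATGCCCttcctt

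The run of 29 bases common to Reg3b and Reg3g begins 20 bases before the start of both and was found in 2 of 32851 promoters of the same length, those 2 alone. In pairwise alignments of these promoters Reg3b and Reg3g were identical at 71.4% of aligned bases (210 of 294). Over fewer aligned bases, Reg3a and Reg3g were identical at 73.7% (179 of 243) and Reg3a and Reg3b at 68.2% (161 of 236). The run of 14 bases in Reg3a also occurs in 2 promoters, Reg3a and Reg3g. The STAT motif TTCNNNGAA, searched on both strands over the whole promoters, had 1 match in Reg3b (TTCTTGGAA, in lower case above) and none in the other 5 members, and 8.30% of all promoters held it. TATAAA on either strand matched in Reg1, Reg2, Reg3b and Reg3g and in 13.6% of all promoters. A match describes letters only, and a missing one says only that these letters are not in this window.

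Reg3a was dim on nearly all arrays and was higher at day 6 in every mouse. Cross-hybridization of its probe set with Reg3b or Reg3g, both bright at day 6, was not tested. Untreated mice had signals of 70.0, 59.7, 3.98, 7.31 and 65.4. The lowest, median and highest were 12.5, 22.6 and 61.2 at day 2 and 4.32, 30.5 and 51.6 at day 4. The 6 day 6 mice had 2060 (mouse 1), 193 (mouse 4), 107, 103, 98.5 and 89.7, so that no day 6 mouse overlapped any mouse of the other days, with or without mouse 1. Of 18193 genes without the filter, 7.39% had all day 6 mice above all day 0 mice, 2.27% above all day 4 mice and 5.33% above all day 2 mice. In the fit of those genes 21.8% were called at day 6, 12.6% higher and 9.16% lower. There the log2 change at day 6 was 2.11 ± 0.59, a fold of 4.33 (limma adjusted p = 0.0113). It was −0.13 at day 2 (0.965) and −0.18 at day 4 (0.895), with 95% intervals of −1.35 to 1.09 and −1.40 to 1.04. Without the 2 arrays carrying pancreatic RNA the day 6 change was 1.45, and limma's adjusted p was 0.0129. Day 6 mouse 4, the next highest in Reg3a, had 17 of 22 acinar markers above the median of its array, against 5 to 8 on the other 20 arrays, and Cela2a, an elastase gene, was at 851 there and at most 46.7 on those 20. Leaving out mouse 4 as well, a setting chosen after seeing the data, gave a change of 1.28 (limma adjusted p = 0.0418). All but 2 of these signals lay below the median of their array, where the log2(signal + 16) scale compresses a fold. The fold of 4.33 includes mouse 1 at 2060 and untreated mice at 3.98 and 7.31. The day 6 median was 1.76 times the day 0 median, and 1.73 times without the 2 pancreatic arrays. The members called at day 6 in that fit were Reg3a, Reg3b and Reg3g, higher, and Reg4, lower.

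Reg4 did not pass at day 2 or day 4 and was lower at day 6, where 5 of 6 mice were low. Untreated mice had signals of 8098, 7445, 6477, 6558 and 9338. The lowest, median and highest were 4813, 6746 and 9330.5 at day 2 and 4144, 6021 and 8273 at day 4. At day 6 the signals were 692, 2670, 499, 10502, 950 and 2510 in mouse 1, 3, 4, 7, 21 and 29. Of these, 5 lay below every mouse of the other days and mouse 7 lay above every one of them. The log2 change against day 0 was −2.14 ± 0.48 at day 6, to 0.227 of the untreated level (limma adjusted p = 0.00131), and leaving out day 6 mouse 7 made it −2.66 (4.07e-06). At day 2 it was −0.15 (limma adjusted p = 0.927) and at day 4 −0.33 (0.679), with 95% intervals of −1.14 to 0.83 and −1.31 to 0.65. Against day 4 the day 6 change was −1.81 ± 0.45 (limma adjusted p = 0.00563), and against day 2 −1.98 ± 0.45 (0.00185). With the hybridization control signal as a covariate the day 6 change did not pass against day 0, at −1.12 (limma adjusted p = 0.467), or against day 2, at −1.11 (0.386). Against day 4 it passed with that covariate (limma adjusted p = 0.0208). The control signal at day 6 lay below day 0 and day 2 without overlap, so signal and day cannot be fully told apart. With mouse number as a replicate block the day 6 change did not pass against day 4 (limma adjusted p = 0.0673) or day 2 (0.144). Mouse numbers name different animals on different days, so this block does not follow a pairing. Without the pancreatic arrays and day 6 mouse 4 the day 6 change did not pass against day 4, at −1.06 (limma adjusted p = 0.0667).

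The 3 day 6 mice with the lowest Reg4 (mouse 4, mouse 1 and mouse 21) were the 3 with the highest Reg3g, at 17138, 21481 and 15553, a description of 6 arrays. Markers of goblet and deep crypt secretory cells were partly lower at day 6, with 8 of 20 lower, 1 higher and a median change of −0.30. Of all genes tested, 14.3% were lower and 18.1% higher in that comparison, the shares to set beside each list here. Best2, a channel of goblet cells, fell by 1.78 on the log2 scale (limma adjusted p = 5.11e-05), Ern2, a stress sensor of the endoplasmic reticulum in mucin-producing cells, fell by 0.88 (1.29e-04) and Creb3l1, a transcription factor of secretory cells, fell by 0.80 (6.99e-06). Best2 did not single out mouse 7: its signals were 198, 544, 160, 127, 111 and 442 in mouse 1, 3, 4, 7, 21 and 29, and mouse 7, highest in Reg4, was the second lowest. The summed signal of the 20 markers was 130319 to 162225 at day 6, against 166613 to 173554 at day 0. Of 16 enteroendocrine markers tested, 1 was higher at day 6 (Tac1, a neuropeptide gene, by 0.61, limma adjusted p = 0.00292) and 0 were lower, with a summed signal over all 18 of 20418 to 27655 at day 6 and 18835 to 23584 at day 0. Colonocyte markers had 4 of 11 lower, among which Aqp8, a water channel, fell by 1.23 (limma adjusted p = 0.00153), and had a summed signal of 100064 to 133710 at day 6 against 132746 to 144992 at day 0. The part of these cell types in the fall of Reg4 was not tested.

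The genes most alike to Reg4 over 23 arrays were Gal3st2c, a sulfotransferase gene, with a Pearson r of 0.915, and Cps1, the mitochondrial carbamoyl phosphate synthetase, with 0.889. For deviations from the day means r was 0.819 for Gal3st2c and 0.788 for Cps1. Among the day 6 mice, mouse 7 was the highest for both, at 104 for Gal3st2c and 356 for Cps1, and mouse 4 was the lowest, at 7.27 and 33.5. Reg3g was most alike, after Reg3b, to Eif4e3 with 0.921 and Clca4b with 0.896, and Reg3b, after Reg3g, to Plscr3 with 0.844.

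**Figure D3:**
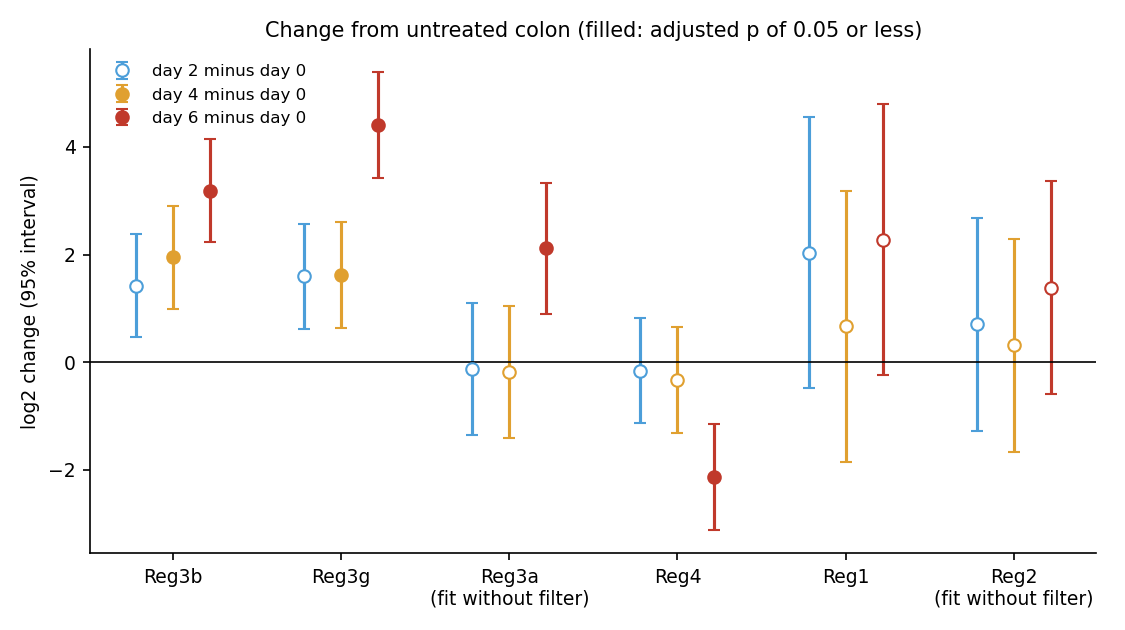
Log2 change against day 0 with its 95% interval for each Reg gene at day 2, day 4 and day 6, filled where limma's adjusted p was 0.05 or less; Reg3a and Reg2 come from the fit without the filter. Reg3b and Reg3g are filled at day 4 and day 6, Reg3a and Reg4 at day 6 alone, and Reg1 and Reg2 are open at every day with intervals that cross 0.

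Reg1 and Reg2 were dim in colon and bright on the arrays carrying pancreatic RNA. Reg1 had 34.2, 17.4, 28.98, 27.9 and 5.24 in untreated mice. At day 2 it had 20739.8 on mouse 6 and 15.9 to 84.4 on the other 5 mice. At day 4 its lowest, median and highest signals were 5.10, 52.9 and 125. At day 6 it had 4508 on mouse 1 and 55.4 to 131 on the other 5 mice. All 6 day 6 mice lay above every untreated mouse, mouse 1 or not, as for 9.94% of genes tested and 7.39% of genes without the filter.

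In the fit of all arrays Reg1 passed at no day, with a log2 change of 2.03 ± 1.22 at day 2 (limma adjusted p = 0.509), 0.67 ± 1.22 at day 4 (0.754) and 2.28 ± 1.22 at day 6 (0.161). The SD of its log2 level at day 2 was 3.52 over all 6 mice and 0.61 without mouse 6. Without the 2 pancreatic arrays Reg1 no longer passed the filter. Without both the arrays and the filter, a setting chosen after seeing the data, its day 6 change was 1.35 and passed (limma adjusted p = 0.0177), while day 2 was 0.61 (0.652) and day 4 was 0.67 (0.313). Among those 5 day 6 mice the highest, at 131, was mouse 4, whose pancreatic enzyme signals were also raised, and the next, at 113, was mouse 7, with 3 mice at 55.4 to 58.7. Without mouse 4 as well the change was 1.19 and did not pass (limma adjusted p = 0.0540). The part of pancreatic RNA in that difference was not tested.

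Reg2 had 57.4, 40.4, 107, 15.7 and 56.6 in untreated mice. At day 2 it had 1076 on mouse 6 and 14.8 to 79.6 on the other 5, and at day 6 it had 10080.1 on mouse 1 and 43.1 to 89.7 on the other 5. At day 4 its lowest, median and highest were 36.1, 69.3 and 90.3. Apart from the 2 pancreatic arrays the days overlapped, and no day 2, day 4 or day 6 mouse lay above the highest untreated mouse. Without the filter the log2 change at day 6 was 1.39 ± 0.96 (limma adjusted p = 0.348), and without the pancreatic arrays 0.21 (0.711).

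The 2 pancreatic arrays carried the Reg genes in different proportions. All 17 acinar markers that stood above the other arrays on both were lower on day 6 mouse 1 than on day 2 mouse 6, among them Prss2 (9692 on day 6 mouse 1 and 28005 on day 2 mouse 6), Cpa1 (5654 and 24968) and Ctrb1 (10232 and 26358). Reg1 went with them, at 0.217 of its day 2 mouse 6 signal on day 6 mouse 1. Reg2 did not, being 9.37 times higher on day 6 mouse 1, and Reg3a was at 2060 there. On day 2 mouse 6 Reg3a was at 50.9, below the median of the array and inside the range of the other 21 arrays, 3.98 to 193, so no fold is given. Reg3d, a related gene on chromosome 6 that is not a member, had 779 on day 6 mouse 1 and 739 on day 2 mouse 6, and at most 126 elsewhere. Reg3b and Reg3g lay at an extreme of their day on both arrays. They had 27297 and 21481 on day 6 mouse 1, the highest of that day (next 25891 and 17138). On day 2 mouse 6 they had 3203 and 800, the lowest of that day (next 4117 and 1065). These are values of 2 arrays, 1 mouse each, without a replicate.

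**Figure D4:**
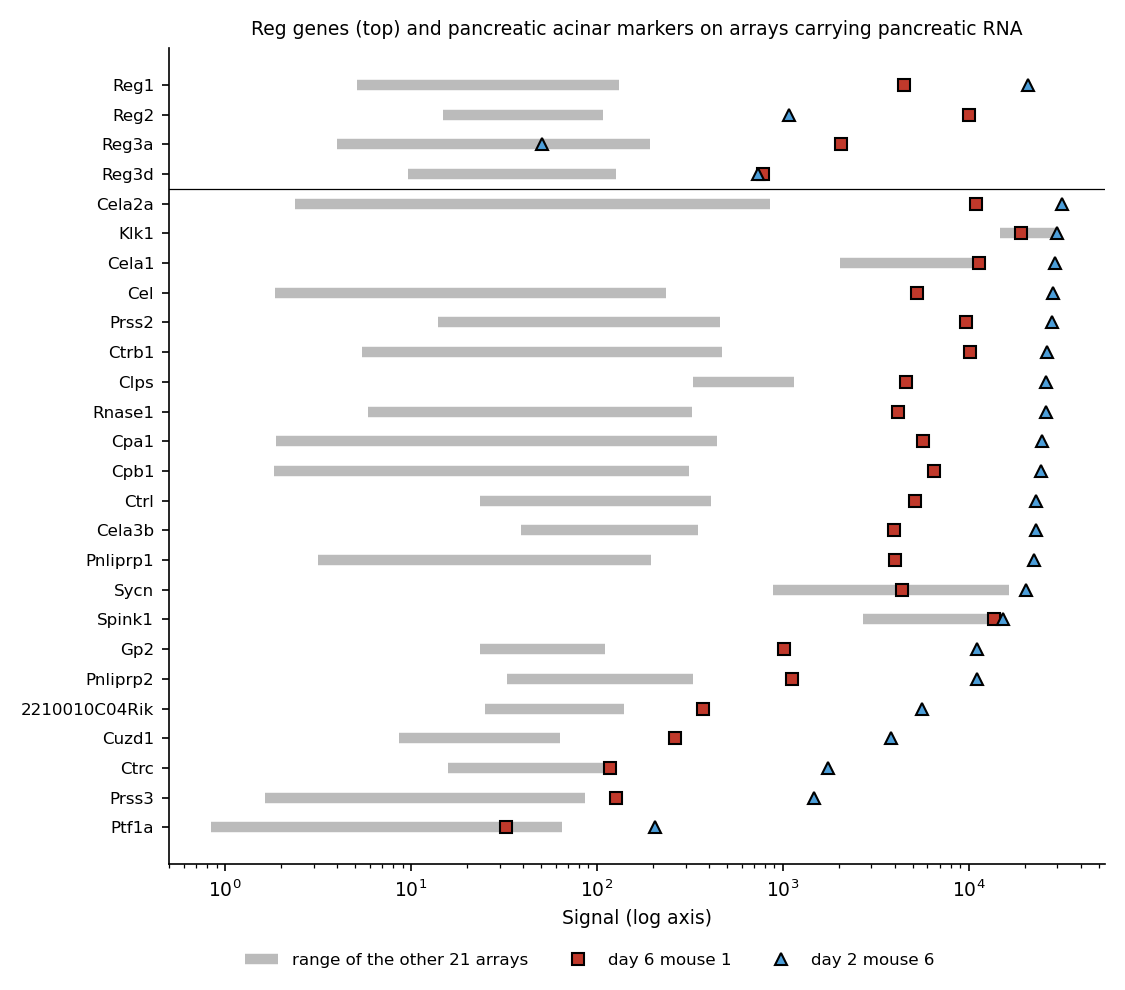
Signal (log axis) of 4 Reg genes (top) and 22 pancreatic acinar markers on day 6 mouse 1 (square) and day 2 mouse 6 (triangle), with the range of the other 21 arrays as a grey bar. The square lies left of the triangle for the acinar markers and for Reg1, and right of it for Reg2 and Reg3a.

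The genes most alike to Reg1 were Prss2 (Pearson r of 0.929) and Cela3b (0.929), both pancreatic proteases, over 23 arrays that include the 2 pancreatic ones. Some acinar markers were bright on every colon array, among them Klk1 at 14796 or more, so the summed signal of the 22 markers was 56325 to 71755 at day 0, 53152 to 414433 at day 2, 50966 to 65923 at day 4 and 28149 to 121791 at day 6. Of the 10 acinar markers tested, 0 were higher and 3 lower at day 6, where 18.1% of all genes were higher and 14.3% lower. Sycn, a secretory granule protein, fell by 1.93, Cela1, an elastase, fell by 0.99 and Klk1, a kallikrein, fell by 0.56 on the log2 scale. The islet marker tested, Iapp, did not pass at any day against day 0, with changes of 1.55 at day 2 (limma adjusted p = 0.154), 0.15 at day 4 (0.861) and 0.85 at day 6 (0.181), and at day 4 against day 2 it fell by 1.40 (0.0437).

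Genes of the IL-6 family and STAT3 signalling, a pathway known to act on Reg3b and Reg3g, were mostly higher at day 6. Of 13 tested, 5 were higher at day 4, where 12.1% of all genes were, and 11 at day 6, where 18.1% were, with 0 lower, and medians of 0.35 and 1.14. At day 6 Il6, the cytokine, was higher by 4.92 ± 0.32 (limma adjusted p = 3.65e-10), Il11, a cytokine of the same family, by 3.78 ± 0.42 (4.75e-07) and Socs3, a feedback inhibitor induced by STAT3, by 3.37 ± 0.22 (4.89e-10). At day 4 Il6 was higher by 2.04, Socs3 by 1.22 and Osmr, a receptor chain for oncostatin M, by 0.87, each with a limma adjusted p of 9.10e-04 or less. At day 2 0 of 13 passed.

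In the IL-22 and IL-17 list the genes tested were receptor chains, signalling genes and Ahr, with no cytokine among them. Il22 itself had no probe set of 1 symbol, so its level was not measured here. Il17a, the cytokine, did not pass the filter, at 28.2 to 95.3 at day 6 and 7.95 to 73.1 at day 0. Of 10 tested (19 listed, 14 with a probe set), 1 was higher and 3 lower at day 6, with a median of −0.17, and 1 was higher and 1 lower at day 4. Il22ra1, the receptor chain for IL-22, fell by 0.75 ± 0.22 at day 6 (limma adjusted p = 0.0117) and fell by 0.69 ± 0.22 at day 4 (0.0356). Its signal was 171 to 262 at day 6, against 305 to 432 at day 0, without overlap, as for 6.64% of all genes. Il17re, a receptor chain of the IL-17 family, fell by 0.48 (limma adjusted p = 0.0131) and Il17ra, the shared chain, higher by 0.37 (0.0117). Ahr, a receptor for aryl hydrocarbons, was higher by 0.33 at day 4 (limma adjusted p = 0.0411). Extl3, proposed as a receptor for Reg proteins, had a change of 0.08 ± 0.10 at day 6 (limma adjusted p = 0.569).

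Among 22 other antimicrobial genes tested, 10 were higher and 3 lower at day 6, with a median of 0.87. S100a9 and S100a8, the calprotectin subunits of neutrophils, were higher by 5.46 ± 0.56 and 4.99 ± 0.50, and Saa3, a serum amyloid, by 4.92 ± 0.38, each with a limma adjusted p of 1.59e-07 or less. At day 4 Saa3 was higher by 1.83 (limma adjusted p = 0.00243) and Lcn2, which binds bacterial siderophores, by 1.47 (0.00724). Ang4, an antimicrobial ribonuclease of Paneth and goblet cells, fell by 2.09 at day 4 (limma adjusted p = 0.0271). Its signal was 503 to 15472 at day 4 against 2343 to 13850 at day 0, so its highest day 4 mouse lay above every untreated mouse. At day 6 Ang4 fell by 1.82 (limma adjusted p = 0.0309). Of 6 small intestine and Paneth markers tested, 1 was higher at day 6 (Lyz1, lysozyme, by 0.96) and 1 was lower (Mptx1, a pentraxin, which fell by 3.63). Both were bright in untreated colon, at 5189 to 7974 for Lyz1 and 12657 to 21996 for Mptx1. The share of each list that passed at day 6 stands beside 32.4% of all genes, 18.1% higher and 14.3% lower. In this comparison Reg3g, at 4.41, lay within the range of the antimicrobial list, −1.82 to 5.46, and Reg4, at −2.14, lay below it.

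**Figure D5:**
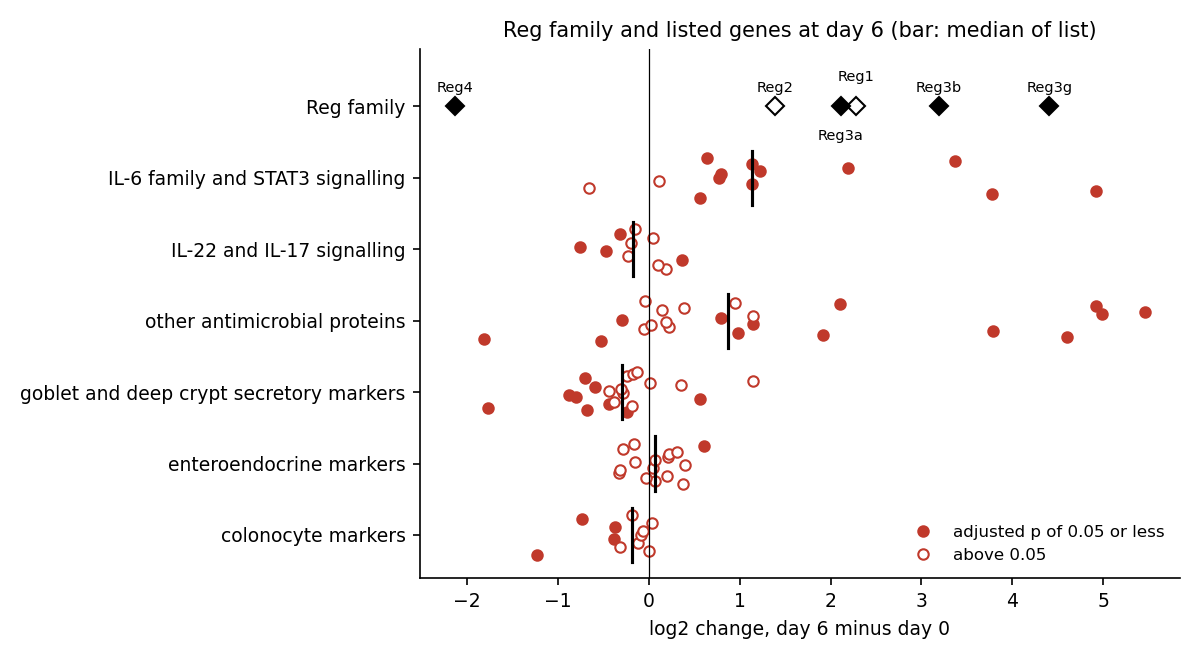
Log2 change at day 6 minus day 0 of the 6 Reg genes (diamonds) and of each tested gene in 6 lists (circles), filled where limma's adjusted p was 0.05 or less, with the median of each list as a bar. Reg3g and Reg3b lie among the most raised antimicrobial and IL-6 family genes, and Reg4 lies left of all goblet and deep crypt secretory markers, whose lowest value is −1.78.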

How the data were processed

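Colon RNA of 23 mice was hybridized to mouse genome arrays, 1 array a mouse, from 5 ug of total RNA. Each deposited value is the linear signal intensity of a probe set, made by the authors with MAS5 per the submitters' processing notes, which give no version. They came already scaled and were not normalized further. Of 45101 probe sets, 64 controls were left out. In the platform annotation 34945 had 1 symbol and could be named, 932 had several and 9160 had none. Signals were analysed as log2(signal + 16). The filter asked for a signal above the array's median on 5 or more arrays, and the passing probe set with the highest mean log2 signal stood for a gene, which left 12463 genes. Folds on this scale understate changes of dim genes.

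All 4 days entered 1 limma fit (limma 3.58.1, R 4.3.3, eBayes with trend), with 6 two-sided contrasts, each adjusted by the Benjamini-Hochberg method over all genes and called at 0.05 or less. Mice of a day are separate animals. Comparisons that share a day share its arrays. The fit was tested on simulated data. Named genes are all members, up to 3 called genes a list with the largest change (up to 2 of lowest p where none passed), and the genes most alike to each member by Pearson r. The members and 12 gene lists were chosen with earlier results of these data known. Alternatives were other pseudocounts, filters, normalizations and fits, and left-out arrays. Promoters came from RefSeq. Probe sequences, and so cross-hybridization between Reg genes, were not analysed here. The number of arrays limits the precision.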

Additional observations from a re-analysis of the deposited data

Results flagged for a closer look

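Single arrays stood far above the others of their day in 5 cases. The measure was the gap to the nearest array over the range of the day, on the log2(signal + 16) scale. Such a gap arises by chance in about 1 of 20 groups, and 28 groups (7 probe sets on 4 days) were examined. All 5 were on the 2 arrays carrying pancreatic RNA. At day 2, mouse 6 had 20739.8 for Reg1, against 15.9 to 84.4 on the other 5 mice, and 1075.55 for Reg2, against 14.8 to 79.6. At day 6, mouse 1 had 4507.98 for Reg1, against 55.4 to 131, 10080.1 for Reg2, against 43.1 to 89.7, and 2059.52 for Reg3a, against 89.7 to 193. Reg4 on day 6 mouse 7, at 10502 against 499 to 2670 on the other 5 mice, did not meet this measure on that log2 scale.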

How the results depend on the processing

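Counts of members called kept within 1.5 times of their value under most of the alternatives. Day 4 against day 0 gave 2 members, 1 with mouse number as a replicate block, 0 with the hybridization control signal as a covariate, and 1 to 2 with single arrays left out. Day 6 against day 4 gave 3, 1 without the pancreatic arrays and day 6 mouse 4, and 2 to 3 with single arrays left out. Day 6 against day 2 gave 3 and 1 with the covariate. Single arrays left out gave 3 for day 6 against day 0 and day 2, and 0 for day 2 against day 0 and day 4 against day 2. The causes were not tested. Leaving out day 6 mouse 4 as well, and combining the missing filter with another choice, were alternatives chosen after seeing the data. Mouse numbers did not pair the arrays: of 17 pairs with the same number, 3 had a correlation of deviations above 0.1 (range −0.16 to 0.70), and 3 of 17 arrays correlated best with their own number.

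The changes that turned direction were not called in either setting. Under the replicate block Reg1 at day 4 against day 0 was −0.53 and Reg4 at day 4 against day 2 was 0.058. With the covariate Reg4 was 0.46 at day 4 against day 0 and 0.46 at day 4 against day 2, and Reg3g at day 4 against day 2 was −0.27. Without the pancreatic arrays Reg3g at day 4 against day 2 was −0.22, also without day 6 mouse 4. Reg1 at day 6 against day 2 was −0.0032 with a pseudocount of 64, with or without the filter, and −0.20 to 0.51 with single arrays left out (−0.68 to 1.67 without the filter). Reg3g at day 4 against day 2 ranged from −0.24 to 0.31 over single arrays left out. Without the filter and the pancreatic arrays, day 4 against day 2 was 0.051 for Reg1, 0.29 for Reg2 and 0.075 for Reg3a, and Reg2 at day 6 against day 4 was −0.11 (−0.062 without day 6 mouse 4 as well, which left the others as they were). Reg3a at day 2 against day 0 was 0.058 with a pseudocount of 1. Over single arrays left out without the filter, Reg1 at day 4 against day 2 was −1.82 to 0.051, Reg2 was −0.74 to 0.29 at day 4 against day 2, −0.11 to 1.38 at day 6 against day 4 and −0.49 to 1.36 at day 6 against day 2, and Reg3a was −0.44 to 0.082 at day 2 against day 0, −0.49 to 0.033 at day 4 against day 0 and −0.19 to 0.16 at day 4 against day 2.

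Reg3b at day 6 against day 4 lost its call under 6 alternatives and 11 of 23 single arrays left out, with limma's adjusted p up to 0.117. Under the replicate block Reg3g at day 4 (limma adjusted p = 0.116) and Reg4 at day 6 against day 4 (0.0673) and against day 2 (0.144) lost theirs.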
